A study of Mus musculus with 9 samples.

Results

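The 6 genes described here are Reln, which encodes the secreted protein reelin, its receptor genes Vldlr and Lrp8, the intracellular adaptor gene Dab1, and the matrix protein genes Spon1 (F-spondin) and Spon2 (mindin). They were taken by name from 18193 genes with a probe set that carries 1 gene symbol in the platform annotation. The set was drawn up with results of these arrays in view, because Reln and Spon1 were among the genes with the largest difference between the optic fissure and the rest of the cup. Values of Reln and Spon1 in comparisons with the fissure are therefore a description and carry no test. Vldlr, Lrp8, Dab1 and Spon2 belong to the set by function. Earlier results of these data were known when all 6 genes and the gene lists below were chosen. Vldlr, Lrp8 and Dab1 were tested with all other genes, and Spon2 was too dim for a test.

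Mouse optic cups were dissected by laser at E11.5, and RNA from 3 regions was hybridised to 3 arrays each. The optic fissure region reached 5 cell diameters from the edge of the fissure, and the nasal and temporal regions were each taken from the middle of their side. Strain and genotype are not given in the sources used here. The arrays of a region are lettered A, B and C and described as biological replicates. Nothing says whether embryos were pooled, so p-values cover only the spread among these 9 samples, which may in part be technical.

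Reelin is a large secreted glycoprotein that binds VLDLR and LRP8 (also called ApoER2), members of the LDL receptor family. Binding clusters the receptors and leads Src family kinases to phosphorylate DAB1 on their inner side, a signal best known for placing migrating neurons in the layered brain. In the retina the pathway is known mainly from later wiring of the synaptic layers. F-spondin is a secreted matrix protein first studied in the floor plate of the neural tube, where it guides axons. It carries a domain shared with the start of reelin, together with thrombospondin repeats, and mindin is a smaller relative.

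The promoters of Reln and Dab1 are shown because these are the ligand and adaptor genes that differed between regions and have a promoter entry in the RefSeq table (GRCm38.p6). Of the 6 genes, Reln, Dab1, Vldlr and Lrp8 were matched. Each sequence is the 250 bases before an annotated start, 5′ to 3′ on the strand of the gene. Capitals mark matches of GGGCGG or its reverse complement, and of CACGTG, which reads the same on both strands.
Reln, chr5:22344706-22344955, minus strand: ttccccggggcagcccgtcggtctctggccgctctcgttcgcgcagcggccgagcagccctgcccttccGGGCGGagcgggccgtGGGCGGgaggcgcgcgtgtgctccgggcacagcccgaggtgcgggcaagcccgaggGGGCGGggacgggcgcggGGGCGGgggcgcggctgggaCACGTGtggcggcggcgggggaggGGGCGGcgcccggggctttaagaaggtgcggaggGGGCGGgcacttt
Dab1, chr4:103619250-103619499, plus strand: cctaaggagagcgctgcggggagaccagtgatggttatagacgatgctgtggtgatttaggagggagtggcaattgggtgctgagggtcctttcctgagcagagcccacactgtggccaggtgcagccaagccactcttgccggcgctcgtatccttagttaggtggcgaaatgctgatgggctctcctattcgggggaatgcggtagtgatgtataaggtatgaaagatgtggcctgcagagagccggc
Dab1, chr4:104367288-104367537, plus strand: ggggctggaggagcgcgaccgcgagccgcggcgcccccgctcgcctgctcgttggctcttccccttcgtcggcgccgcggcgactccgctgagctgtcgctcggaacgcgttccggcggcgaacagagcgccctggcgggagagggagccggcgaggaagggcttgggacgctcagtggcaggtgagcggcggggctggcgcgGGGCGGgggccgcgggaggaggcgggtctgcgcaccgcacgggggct
The Reln sequence held 6 matches of GGGCGG and 1 of CACGTG, and 80% of its bases were G or C. Of the 32851 promoters in the table, 98.8% had a lower share of G and C over the same 250 bases. The Dab1 start at the lower coordinate had 56.4% G and C and 0 matches of either motif, and the other had 78.0% and 1 match of GGGCGG. Among all promoters 32.7% held GGGCGG and 6.02% held CACGTG. The homeodomain motif TAATTA, held by 4.84% of promoters, had 0 matches on either strand in these 3 windows. CTTTGAT, in 3.21% of promoters, had 0 as well. The T-box motif AGGTGTGA, in 1.12%, had 0 too. The windows of Vldlr and Lrp8, not shown, had 41.6% to 66.4% G and C. The Vldlr window at the lower coordinate held 1 match of TAATTA, and the other held 1 of GGGCGG. The Lrp8 windows held 0 of either. The GC-rich letters are a description of the sequence, and the probe sets do not show which Dab1 start was used. A link between these sequences and the levels was not tested.

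The platform carries 22 probe sets for the 6 genes, and 16 of them exceeded the 40th percentile of an array on 3 arrays or more, the level required for a test. These came from 5 genes. Both Spon2 probe sets were too dim. Array medians ran from 27.4 to 30.2 intensity units, and the 40th percentile from 15.7 to 17.5. Fissure array B stood apart: it correlated at 0.964 to 0.971 with the other fissure arrays and at 0.960 to 0.970 with the nasal and temporal ones, so results are also given without it. Changes below are differences on the log2(intensity + 16) scale with their standard error (SE), which understates the change of dim genes. Intensities are means ± SD over 3 arrays.

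Reln was bright in the nasal and temporal cup and dimmer at the fissure. The main probe set, 1449465_at, read 491.0, 488.6 and 396.3 on fissure arrays A, B and C. It read 2113, 1900 and 2360 on the nasal arrays and 2610, 2360 and 2992 on the temporal arrays. Every fissure array lay below every other array. The means were 459 ± 54.0, 2124 ± 231 and 2654 ± 318 (SD, n = 3 each), a cup mean 5.21 times the fissure mean. On the log2 scale the fissure was lower by a change of -2.33 (SE 0.14) against the cup mean, the average of the nasal and temporal regions, and of -2.38 (SE 0.16) without fissure array B. Within single letters the difference from the cup mean ran from -2.70 to -2.08. The second Reln probe set, 1458020_at, read between 1.20 and 16.1 on the 9 arrays, below the level of the filter, and its regions overlapped.

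Between the 2 sides of the cup, Reln tended to read higher on the temporal side. The nasal value was below the temporal one within each of the 3 letters, by -0.34 to -0.30 on the log2 scale, while nasal array C and temporal array B read almost alike. The difference did not pass over all genes (log2 change -0.32, SE 0.17, adjusted p = 1.0 in limma, 95% interval -0.68 to 0.04). With the letter as a block, limma gave an adjusted p of 0.911. The order of mean levels was thus fissure, nasal, temporal, and only fissure and nasal arrays were apart without overlap. The gap between nasal and temporal means was 530, above the larger SD of 318, but their arrays overlapped.

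**Figure D1:**
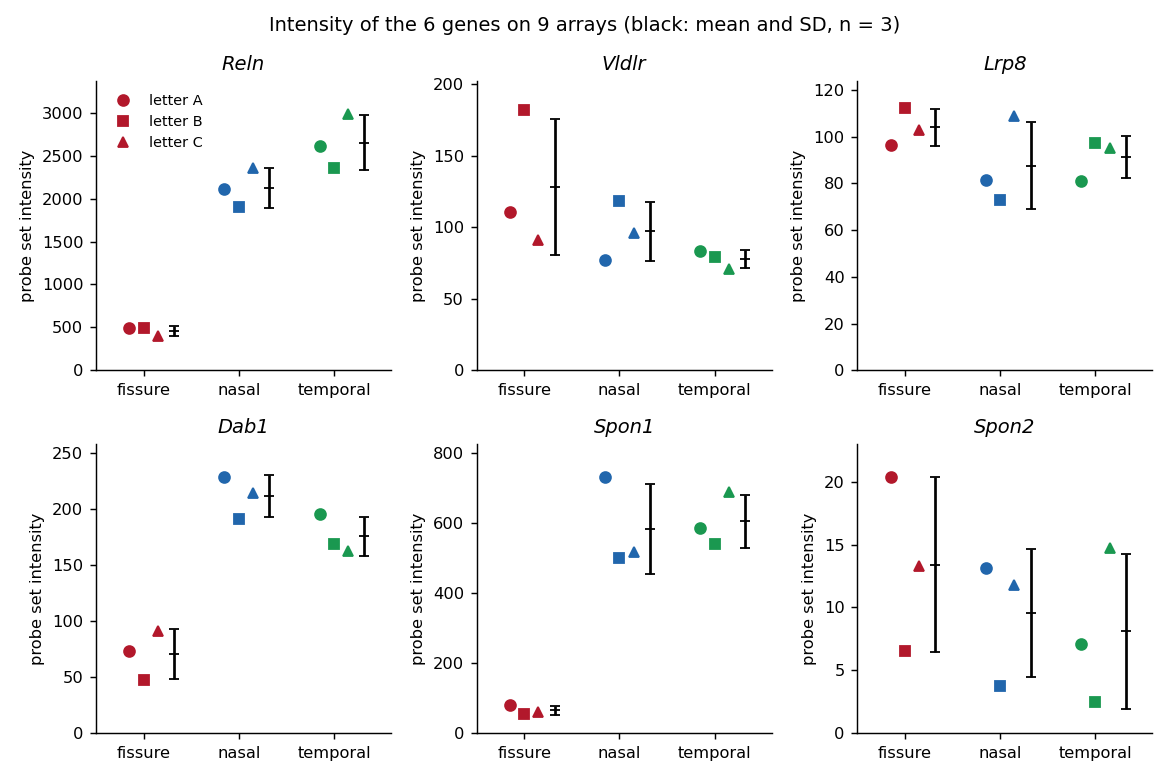
Probe set intensity (linear axes from 0) of the main probe set of each of the 6 genes on the 9 arrays, by region. Symbols mark the letters, and black bars the mean and SD of 3 arrays. Reln, Dab1 and Spon1 read lower on all 3 fissure arrays than on the other 6, whereas Vldlr, Lrp8 and Spon2 overlap.

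The 2 receptor genes did not follow the ligand. Vldlr, which encodes a lipoprotein receptor that also binds reelin, read 110.5, 181.6 and 91.3 on fissure arrays A, B and C with its brightest probe set, 1434465_x_at. It read 77.2, 118.3 and 96.0 on the nasal and 83.5, 79.0 and 71.0 on the temporal arrays. Fissure and nasal arrays overlapped, all 3 fissure arrays lay above all 3 temporal arrays, and fissure array B was the highest of all 9. Of all genes tested, 12.1% had their fissure arrays above their temporal arrays in this way. Against the temporal cup alone the change was 0.57 (SE 0.23, 95% interval 0.07 to 1.07, adjusted p = 0.202 in limma and 0.0682 with the letter as a block). An unadjusted p below 0.05 in limma, which this interval implies, was reached by 18.2% of genes in that comparison. The change against the cup mean was 0.44 (SE 0.20, adjusted p = 0.215 in limma) and did not pass. Without fissure array B it was 0.19 (SE 0.17, adjusted p = 0.500). The suffix of this probe set marks probes that can also match other transcripts.

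The other 5 Vldlr probe sets were dimmer. Probe sets 1435893_at, 1438258_at and 1417900_a_at averaged 31.4, 29.4 and 24.9 over the 9 arrays and changed by 0.20, 0.07 and 0.27 against the cup mean. None of them passed in limma, whose smallest adjusted p among them was 0.474, and 0 had an unadjusted p below 0.05. The remaining pair, 1442169_at and 1451156_s_at, lay below the level of the filter. For 1435893_at the nasal arrays, at 22.5 to 28.2, lay below the temporal ones, at 29.4 to 36.5. It was the only probe set of the 22 with nasal and temporal arrays apart, as 3.71% of all genes were in this direction, and its change of -0.26 did not pass (adjusted p = 1.0 in limma).

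Lrp8, which encodes the receptor that also binds F-spondin, showed no difference between regions that passed. Probe set 1442347_at read 96.6, 112.5 and 103.0 at the fissure, 81.3, 72.9 and 108.7 in nasal and 81.2, 97.5 and 95.2 in temporal cup. The regions overlapped. The change at the fissure was 0.19 (SE 0.14, adjusted p = 0.487 in limma), with a 95% interval from -0.12 to 0.51 that does not hold a fall of the size measured for Dab1. A second probe set, 1440882_at, changed by 0.17 (SE 0.14, adjusted p = 0.544 in limma over probe sets). The third, 1421459_a_at, averaged 10.4 and was below the level of the filter. Within letters 1442347_at differed from the cup mean by 0.02 to 0.36 and 1440882_at by 0.01 to 0.30, above 0 in all 3 letters. The dim 1421459_a_at ran from -0.29 to 0.13.

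Dab1, the adaptor that carries the reelin signal inside the cell, fell at the fissure. With its brightest probe set, 1435578_s_at, it read 73.0, 47.2 and 91.2 on fissure arrays A, B and C. It read 228.4, 191.2 and 213.9 on the nasal and 195.1, 168.5 and 162.5 on the temporal arrays. No fissure array reached the lowest of the other 6. The means were 70.5 ± 22.1, 211 ± 18.8 and 175 ± 17.4 (SD, n = 3 each), a cup mean 2.74 times the fissure mean. The log2 change was -1.30 (SE 0.17, adjusted p = 6.40e-04 in limma), and -1.09 (SE 0.15, adjusted p = 0.00154) without fissure array B.

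All 5 Dab1 probe sets read lower at the fissure. The other 4 were 1421100_a_at, 1427308_at, 1435577_at and 1427307_a_at, with fissure means of 33.4, 44.5, 48.1 and 39.9 against 93.2 or more in the nasal or temporal cup. Their log2 changes against the cup mean were -1.32, -1.08, -1.06 and -1.001, and each passed in limma over probe sets (adjusted p = 6.42e-04, 6.67e-04, 0.0192 and 0.00821). Probe sets of 1 gene share their RNA and are not replicates of the change. Against each side alone the main probe set changed by -1.42 (nasal, adjusted p = 0.00134) and -1.18 (temporal, adjusted p = 0.00438). The exception was 1435577_at against the temporal cup, at -0.92 with an adjusted p of 0.0944 in limma. Within letters the main probe set differed from the cup mean by -1.63 to -0.92.

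Between nasal and temporal cup Dab1 did not pass (log2 change 0.25, SE 0.20, adjusted p = 1.0 in limma). Its main probe set read higher on the nasal side within each of the 3 letters, but 1427308_at and 1427307_a_at did so in 1 letter each. The probe sets thus differ in direction on this point.

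**Figure D2:**
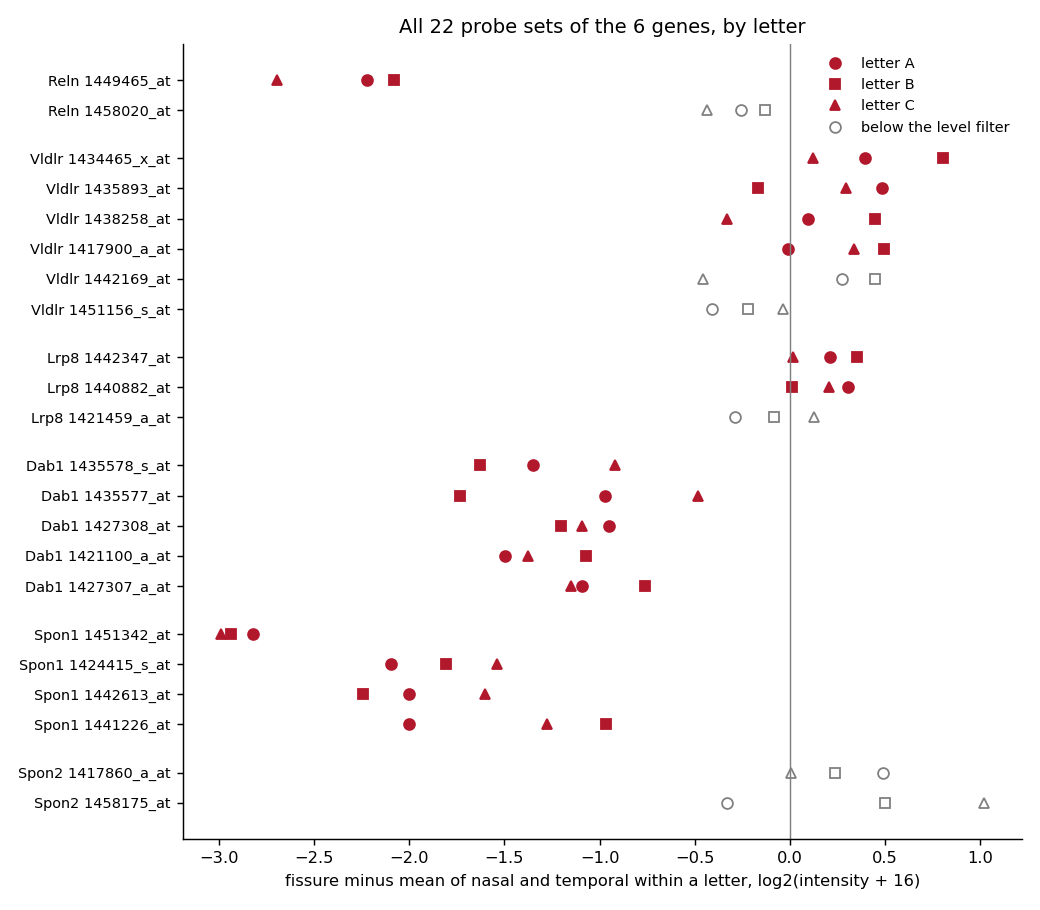
Difference between the fissure array and the mean of the nasal and temporal arrays of the same letter, on the log2(intensity + 16) scale, for each of the 22 probe sets. Open grey symbols are probe sets below the level of the filter. The 5 Dab1, 4 Spon1 and 1449465_at Reln probe sets lie left of 0 in all 3 letters, and the 5 other Vldlr and Lrp8 probe sets above the filter, beside 1434465_x_at, lie at most 0.49 from it.

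Spon1 showed the largest difference of the 6 genes. Probe set 1451342_at read 79.0, 54.2 and 61.1 on fissure arrays A, B and C. It read 731.6, 501.4 and 516.6 on the nasal and 585.4, 541.2 and 687.6 on the temporal arrays. The 3 fissure arrays lay far below the other 6. The means were 64.8 ± 12.8, 583 ± 129 and 605 ± 75.1 (SD, n = 3 each), a cup mean 9.17 times the fissure mean. The log2 change was -2.91 (SE 0.17), and -2.82 (SE 0.19) without fissure array B. Within letters it ran from -2.99 to -2.82, a narrower range than for Reln or Dab1.

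The other 3 Spon1 probe sets read low at the fissure too. Probe set 1424415_s_at read 13.5 to 25.0 at the fissure against 93.4 to 110.9 elsewhere, and 1442613_at read 0.50 to 3.20 against 40.6 to 70.1. The dimmest, 1441226_at, read 2.40 to 11.9 against 25.4 to 70.0. Their log2 changes of -1.81, -1.95 and -1.41 are smaller than that of the main probe set partly by construction, because the added 16 weighs more on dim values. On fissure arrays 1442613_at and 1441226_at lay below the array's 40th percentile, so these levels are close to background. Those probe sets passed the filter through nasal and temporal arrays alone. Probe set 1424415_s_at was also dim at the fissure, with 13.5 on array A, below the lowest 40th percentile of 15.7, and 15.9 on array B. These probe sets share their RNA with the main one and are not replicates of the change. Nasal and temporal cup did not differ beyond their spread (main probe set -0.06, SE 0.19, adjusted p = 1.0 in limma, 95% interval -0.49 to 0.36).

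Spon2 stayed near background everywhere. Probe set 1417860_a_at read 20.4, 6.50 and 13.3 at the fissure, 13.1, 3.70 and 11.8 in nasal and 7.10, 2.50 and 14.7 in temporal cup. Probe set 1458175_at read 2.70 to 28.3 over the 9 arrays. The regions overlapped for both, and no test was made. The difference seen for Spon1 was therefore measurable for 1 of the 2 spondin genes only, and the arrays do not show whether Spon2 differs.

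**Figure D3:**
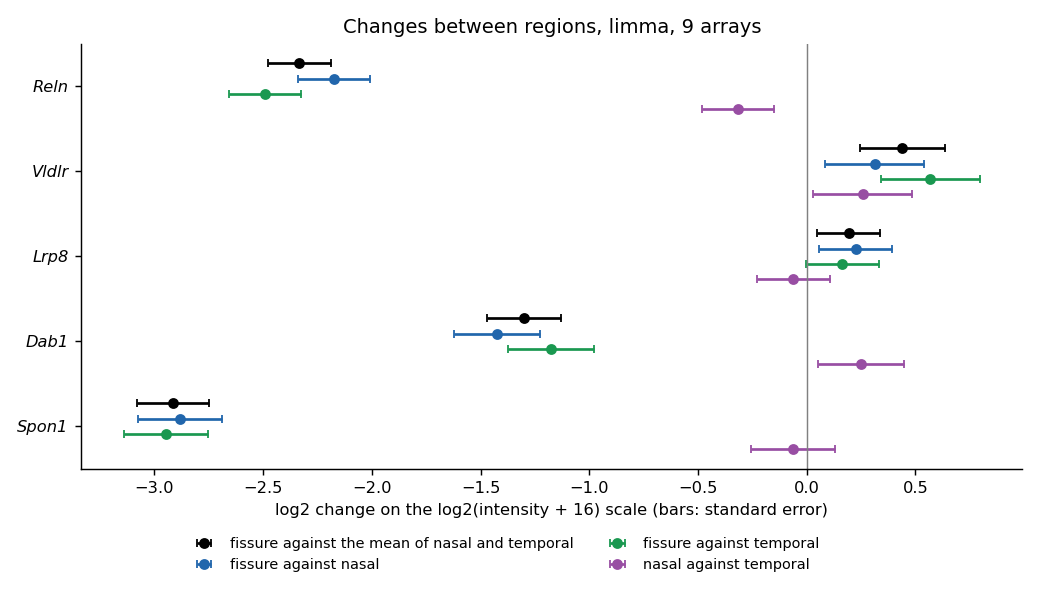
Log2 change (points) with its standard error (bars) of the 5 genes above the level of the filter in the 4 comparisons, from limma on 9 arrays. Points left of 0 are lower in the region named first. Reln, Dab1 and Spon1 lie between -2.95 and -1.18 in all 3 comparisons with the fissure, which share its arrays.

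Across the 5 tested genes, 1 of the 3 whose fissure comparison is tested passed, namely Dab1. For fissure against cup mean 8.6% of 12773 genes passed in limma, 5.72% higher and 2.88% lower, and 16.9% passed with the letter as a block. All 3 fissure arrays lay below the other 6 for 5.76% of genes. Nothing is read from the counts of the 6 genes against these shares, since Reln and Spon1 were chosen on this contrast. Against the nasal cup alone 6.37% of genes passed, and against the temporal cup 5.36%. For nasal against temporal cup 0.047% passed in limma, and 0.133% with the letter as a block. None of the 5 genes did in either fit, nor at an unadjusted p below 0.05, which 2.91% of genes reached.

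The genes whose profile over the 9 arrays was most like that of Reln were Fgf15, Slc4a5, Cltrn, Myrip and Sowaha. Likeness was the root mean square difference between log2 profiles, each centred on its own mean, and came to 0.28, 0.29, 0.31, 0.33 and 0.33 against a median of 1.16 over all genes. For Spon1 they were Slc4a5 (0.22), Fgf15 (0.29), Pcdh17 (0.35), Reln (0.35) and Ano1 (0.38), against a median of 1.42. Fgf15 encodes a growth factor of retinal progenitors and Slc4a5 a bicarbonate transporter. At the fissure Myrip, Sowaha and Ano1 averaged 14.4, 8.13 and 12.9, below the lowest 40th percentile of 15.7, and Pcdh17 averaged 16. Their fissure values are thus close to background, where the added 16 weighs heavily, whereas Reln averaged 459 there. Spon1 in turn ranked 9 and Dab1 72 of 12772 genes by likeness to Reln, whereas Lrp8 and Vldlr ranked 8005 and 11259. These ranks rest on the contrast that chose Reln and Spon1, so they describe the profiles and test nothing.

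Other genes of the pathway and relatives of F-spondin were called in both directions. Of 101 further genes in 5 lists, 95 had a probe set and 86 were tested. At the fissure 9 rose and 3 fell in limma, with a median log2 change of 0.09 against 0.04 over all genes tested. These are 10.5% and 3.49% of the 86, beside 5.72% and 2.88% of all genes. With the letter as a block 12 rose and 6 fell. Without fissure array A the count was 6, and without fissure array B 16. Between nasal and temporal cup 0 of 86 passed.

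Among 16 other receptors and ligands, 3 rose and 0 fell, with a median of 0.26, and 5 rose and 1 fell with the letter as a block. Apoe, which encodes an apolipoprotein ligand of the same receptors, rose from 620 ± 154 and 652 ± 209 in nasal and temporal cup to 2080 ± 181 (log2 change 1.72, SE 0.21, adjusted p = 3.64e-04). Nrp1, the semaphorin co-receptor neuropilin-1, rose from 77.9 ± 19.9 and 97.5 ± 24.0 to 212 ± 31.8 (1.15, SE 0.18, adjusted p = 0.00193). Lrp4, another LDL receptor relative, changed by 0.91 (SE 0.25, adjusted p = 0.0467). The value was 0.0567 to 0.245 without fissure array A or C, nasal array A or B, or any 1 temporal array. The Lrp4 call was also lost with no filter (0.0732), quantile normalization (0.0652), a common median (0.0576) and pseudocounts of 1 (0.0891) and 64 (0.0526), and it passed in 7 of 19 alternatives. The 13 tested leukocyte genes, and part of the lens and periocular mesenchyme genes described below, rose in the same captures. Whether the rise of Apoe, Nrp1 or Lrp4 goes with them was not tested.

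Of 10 genes for processing of reelin or its receptors, 2 rose and 1 fell, with a median of 0.13. Adamts5 and Adamts3 encode secreted proteases that can cut reelin. Adamts5 rose from 33.5 ± 4.57 and 51.1 ± 20.5 to 209 ± 45.9 (1.97, SE 0.20, adjusted p = 1.13e-04), and Adamts3 fell from 63.4 ± 7.56 and 64.6 ± 12.9 to 35.7 ± 4.56 (-0.62, SE 0.15, adjusted p = 0.0209). The Adamts3 call was lost without fissure array A (adjusted p = 0.0583) or C (0.0995), and when all its probe sets were averaged (-0.27, adjusted p = 0.206). Plat, the tissue plasminogen activator gene, rose by 0.72 (SE 0.14, adjusted p = 0.00712). That call was lost when fissure array A was left out (0.0556).

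Of 13 genes for the Dab1 kinases and for DAB1 degradation, 0 rose and 1 fell, with a median of -0.00. Socs2, which encodes a subunit of a ubiquitin ligase, changed by -0.64 (SE 0.15, adjusted p = 0.0261). That call was lost without fissure array A (adjusted p = 0.146), fissure array C (0.153) or nasal array A (0.0592), and when its probe sets were averaged (-0.25, adjusted p = 0.255).

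Of 33 genes listed under signalling below DAB1, 2 rose and 0 fell, with a median of 0.08. Dab2, in this list as the adaptor relative of Dab1 and not as a step below it, rose where Dab1 fell. It went from 95.1 ± 21.6 and 112 ± 34.0 to 292 ± 60.4 (1.38, SE 0.21, adjusted p = 0.00168 in limma). Ndel1, which encodes a partner of the dynein regulator LIS1, changed by 0.50 (SE 0.14, adjusted p = 0.0489). The value was 0.0541 to 0.237 when any 1 array other than fissure array B was left out. The Ndel1 call was also lost with no filter (0.0545), a common median (0.0738) and a pseudocount of 1 (0.0668), and it passed in 9 of 20 alternatives. Whether the rise of Dab2 or Ndel1 goes with the leukocyte, lens and mesenchyme genes was not tested either.

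Of 14 genes listed as relatives of F-spondin, most of them with thrombospondin repeats, 2 rose and 1 fell, with a median of 0.08. Rspo3, a secreted Wnt agonist, rose from 18.8 ± 5.30 and 15.7 ± 9.75 to 109 ± 3.75 (1.94, SE 0.19, adjusted p = 1.03e-04). Its nasal and temporal levels were close to background. The size of the change ran from 0.97 to 2.72 over 20 alternatives, and it passed in all of them. Sema5a, a semaphorin with thrombospondin repeats, rose by 1.36 (SE 0.27, adjusted p = 0.00869). The adjusted p was 0.0667 when fissure array A was left out and 0.0662 without letter B. Adgrb3, an adhesion receptor of neurons, fell by 1.04 (SE 0.19, adjusted p = 0.00592), from 87.5 ± 10.2 and 116 ± 39.7 to 40.7 ± 11.7.

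**Figure D4:**
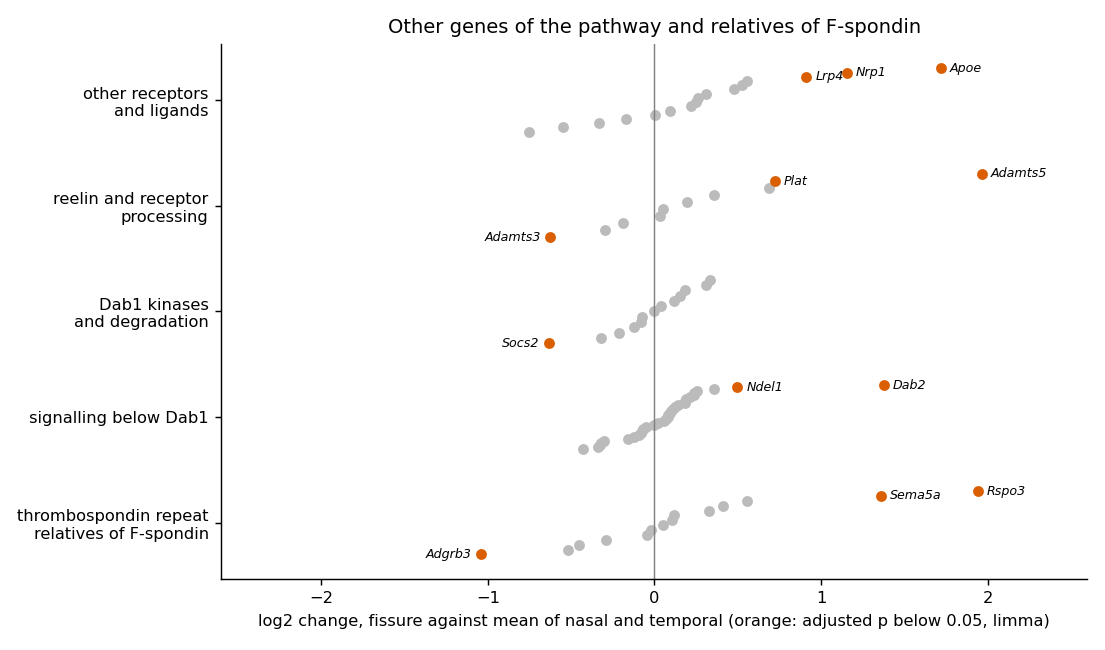
Log2 change at the fissure against the cup mean (x axis) of 86 tested pathway genes and relatives, 1 point per gene, in 5 lists spread vertically by rank. Orange points passed in limma and are named. The lists centre near 0, with medians from -0.00 to 0.26.

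Marker genes of other cell types moved with the same comparison. Of 106 genes in the 9 marker lists, 101 had a probe set and 87 were bright enough for a test. None of the 101 was listed at 0 on any array, but dim probe sets also read above 0, so this does not show presence. All 13 tested leukocyte genes rose at the fissure (median 2.06), with summed intensities of 2987 to 3647 against 584 to 862 in nasal and 495 to 732 in temporal cup. Their brightest, Csf1r and Ctss, read 894 ± 49.5 and 740 ± 76.0 at the fissure, 328 ± 78.5 and 95.7 ± 33.8 in nasal and 326 ± 78.3 and 77.6 ± 25.5 in temporal cup. Of 7 lens genes 5 rose (summed 2527 to 3655 against 680 to 735 and 613 to 1303), and of 14 periocular mesenchyme genes 6 rose and 2 fell (1424 to 3041 against 887 to 1495 and 740 to 1602). Of 7 surface ectoderm genes 1 rose and 3 fell. Of 10 endothelial and 6 erythroid genes 0 passed in limma, but with the letter as a block 2 and 3 of them rose. The block added 1 or 2 calls to each of the other marker lists except the leukocyte list.

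Lists of the cup itself read as follows. Of 9 optic cup progenitor genes 3 fell at the fissure (median -0.30), namely Pax6, Fgf15 and Sfrp2. The summed intensity of the list was 8311 to 8946 against 12448 to 15241 in nasal and 13405 to 14882 in temporal cup. Those bright genes weigh heavily on the sum. Rax, Six6, Sox2 and Hes1 changed downward and Lhx2 (0.62) and Six3 (0.20) upward, and none of these passed in limma. With the letter as a block Lhx2 rose (adjusted p = 0.00723 in limma). Of 11 ganglion cell and neuron genes 2 fell (median -0.06, summed 304 to 777 against 455 to 911 and 857 to 1135), and of 10 pigment epithelium genes 4 fell and 1 rose (median -0.52). The pigment epithelium sums overlapped, at 13674.7 to 16278.5 against 16241.9 to 19526.3 in nasal and 14928.0 to 18313.5 in temporal cup. The brightest of that list, Pmel and Dct, changed by -0.26 and -0.18 and did not pass. The part of the marker list shifts in the values of Reln, Dab1, Spon1 and the pathway genes named above was not tested. In such captures fewer cells of a type and less RNA per cell cannot be told apart, and a ventral position cannot be told apart from the fissure itself, since both other regions lay mid-side.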

How the data were processed

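The authors deposited linear intensities of 45101 probe sets for 9 Affymetrix mouse arrays. Their summary method is not given in the sources used. The mean trimmed by 2% at each end was 150.0 on every array, and no further scaling was applied. Of 34945 probe sets with 1 symbol in the platform annotation, the brightest on average stood for each gene. The 12773 genes that exceeded the 40th percentile of an array on 3 arrays or more were tested. Using limma 3.58.1 (R 4.3.3), region means were fitted to log2(intensity + 16) across the 9 arrays, with Benjamini-Hochberg adjustment over all tested genes and a threshold of 0.05. A second fit used single probe sets. The fit was tested on simulated data with independent arrays, a setting that does not cover correlation between same-letter arrays. Plots were drawn with matplotlib 3.10.9.

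After subtracting region means, the 9 same-letter pairs of arrays had correlations of 0.166 to 0.486 over genes, and the 18 other pairs -0.438 to 0.218. All 9 exceeded 0.1, so same-letter arrays may be paired, which the labels do not state; the main fit has no block, and the letter as a block is an alternative. The 6 genes, the gene lists, motifs and tests were chosen with earlier results of these data known. Named beside the 6 genes are the 5 most like Reln and Spon1 and, per list and comparison, at most 4 pathway genes that passed, with the smallest p. Of a marker list, the 2 genes with the highest mean are named where their values stand beside a result.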

Additional observations from a re-analysis of the deposited data

How the results depend on the processing

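Dab1 kept its direction and its side of the threshold at the fissure under all 20 alternatives (log2 change -1.48 to -0.94, adjusted p at most 0.00543 in limma), and Vldlr and Lrp8 passed under none. Reln ran from -2.46 to -1.30 and Spon1 from -3.18 to -2.02. Averaging all probe sets of a gene gave -1.30 for Reln and -2.02 for Spon1, by including dim probe sets. For Spon1 a pseudocount of 1 gave -3.18 and of 64 gave -2.35. Between nasal and temporal cup none of the 5 tested genes passed under any alternative. The sign of Lrp8 turned with averaged probe sets (0.021), array weights (0.0054) and without letter B (0.083), and ran from -0.20 to 0.041 without 1 array. That of Spon1 turned with averaged probe sets (0.023) and array weights (0.052), and ran from -0.23 to 0.031 without 1 array.

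Counts of all genes that passed moved more. With the replicate block (letter) they were 2165 for fissure against cup mean, 1590 against nasal, 1541 against temporal and 17 for nasal against temporal, compared with 1098, 814, 685 and 6. The block changed no tested call of Dab1, Vldlr or Lrp8, nor any of the 5 genes between nasal and temporal cup. Array weights gave 4099, 2669, 3133 and 10, and 33 pathway genes instead of 12. With only the regions compared, and without letter B, 3 genes passed for nasal against temporal. Without 1 array the counts ran from 486 to 1652, 373 to 1181, 329 to 1101 and 2 to 8, and for pathway genes from 6 to 16. The lowest for each fissure comparison came without fissure array A and the highest without fissure array B (524, 410 and 348 without fissure array C). The cause of these shifts was not tested. Precision is limited by 3 arrays a region, and dim probe sets limit what can be said of Spon2.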
